A study of Mus musculus with 20 samples.

Results

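The fasting response described here is that of hypothalamic AgRP neurons in which the gene Phf6 was deleted. It was read from 10 cKO libraries, 5 from fed and 5 from fasted mice, of the 20 in the series, and it is described across the 13237 genes that passed the filter on low counts. All mice were C57BL/6 animals of postnatal days 25 to 30. The cKO genotype was Phf6 flox/y; AgRP-Cre/+; Ai9/+, so Phf6, an X-linked gene, was deleted where the AgRP promoter drove Cre, and the same Cre switched on the red fluorescent protein tdTomato from Ai9. The other 10 libraries came from wild-type littermates that carried AgRP-Cre/+ and Ai9/+, fed or fasted, and they serve below only to show where the cKO response differed. Fasted mice lost access to food, but not water, at 5 pm on the previous day, and their cells were taken after the night. Each sample held 1000 tdTomato+ neurons sorted from a small punch of hypothalamus dissociated with papain. As the reporter stays on once Cre has acted, tdTomato does not separate neurons that express Agrp at sorting from those that did so earlier. No label ties a replicate number to a mouse of its own, and p-values therefore measure only the spread between these samples, which may be partly technical.

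AgRP neurons lie in the arcuate nucleus and drive feeding: they release agouti-related peptide, neuropeptide Y and GABA, are excited by the stomach hormone ghrelin and by an energy deficit, and are restrained by leptin and insulin. Fasting raises their firing and the transcription of Agrp and Npy. Phf6 encodes a nuclear protein with a pair of PHD-like zinc fingers that binds chromatin, is found with the NuRD and PAF1 complexes, and is mutated in Börjeson-Forssman-Lehmann syndrome, an X-linked intellectual disability with obesity. The comparison of fed with fasted cKO cells asks what a night without food does to the transcriptome of these neurons after Cre deletion of Phf6.

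The targeted gene was measured first. Phf6 stood at 76.3, 68.5, 68.6, 75.3 and 64.97 CPM in fed replicates 1 to 5, and at 55.9, 53.6, 71.3, 62.6 and 62.4 CPM in fasted replicates 1 to 5. The wild-type libraries averaged 276 ± 10.2 CPM fed and 128 ± 11.02 CPM fasted. All exons of the gene are summed in these counts, including those outside the deleted stretch, so the remaining reads do not measure protein. Within the cKO, Phf6 fell on fasting by 0.21 on the log2 scale (SE 0.074, adjusted p = 0.0199), and this call was lost without fed replicate 1 or 4, without fasted replicate 1 or 2, and with fasted replicates 3 to 5 alone, where the adjusted p rose to as much as 0.196.

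Fasting moved a large share of the measured transcriptome of cKO neurons. Of 13237 tested genes, 3445 rose (26.0%) and 3579 fell (27.0%) at an adjusted p under 0.05 (edgeR's quasi-likelihood test with Benjamini-Hochberg adjustment), and 6213 did not pass. Changes of 2-fold or more were found in 572 of the genes that rose and 833 of those that fell, and the median log2 fold change over all tested genes was -0.03. In 2646 genes (20%) every fasted library lay above every fed one, and in 2593 genes (19.6%) every fasted library lay below. These shares are the background against which each gene list below is read. Values are CPM (counts scaled to a common library size), with TMM factors, means are given ± SD over 5 libraries, and log2 fold changes (fasted over fed) are given ± SE.

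Some facts of the libraries bear on every value. Fed cKO libraries held 10604977 to 13573524 counts and fasted ones 8542250 to 9282818, with no overlap (exact 2-sided permutation test, p = 0.00794, the smallest that 5 against 5 allows, adjusted p = 0.0119 over 3 library measures). The 50 most abundant genes took 14.9% ± 0.22 of the counts in fed libraries and 18.1% ± 0.718 in fasted ones (exact 2-sided permutation test, p = 0.00794). With 0 counts, the level allowed is up to 0.262 CPM in a fed and 0.379 CPM in a fasted library, counting error only. Fasted replicates 1 and 2 stood apart from fasted replicates 3 to 5: they scored 20.2 and 28.3 on the second principal component of the 10 cKO libraries, against -27.3, -14.3 and -23.2, while all fed libraries lay between 0.385 and 5.68. The first component, with 53.2% of the variance, separated fed from fasted, and the second held 9.76%. The labels name no batch for these sets. Of the called genes that were tested with each set, 5452 of 7020 were called the same way by each set alone, and 23 genes were called in opposite directions by the sets. Each set was compared with the same fed libraries, so the calls of the sets are not independent.

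Grouped by function, the 30 pathway lists fell into those that mostly rose, those that mostly fell, and those that split. Cytosolic ribosomal proteins, proteins of the endoplasmic reticulum (ER), the proteasome and oxidative phosphorylation were lists in which most tested members rose. Cholesterol synthesis, neurofilament and microtubule genes, glutamate receptors with their scaffolds, and leptin signalling were lists in which most tested members fell. The lists were not tested as sets: each is given by its counts and its median. Some genes are counted in several lists, so the lists are not independent. Mt1 and Mt2 are in those of glucocorticoid targets and metal handling, and Per1 in those of glucocorticoid targets and the clock.

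**Figure D1:**
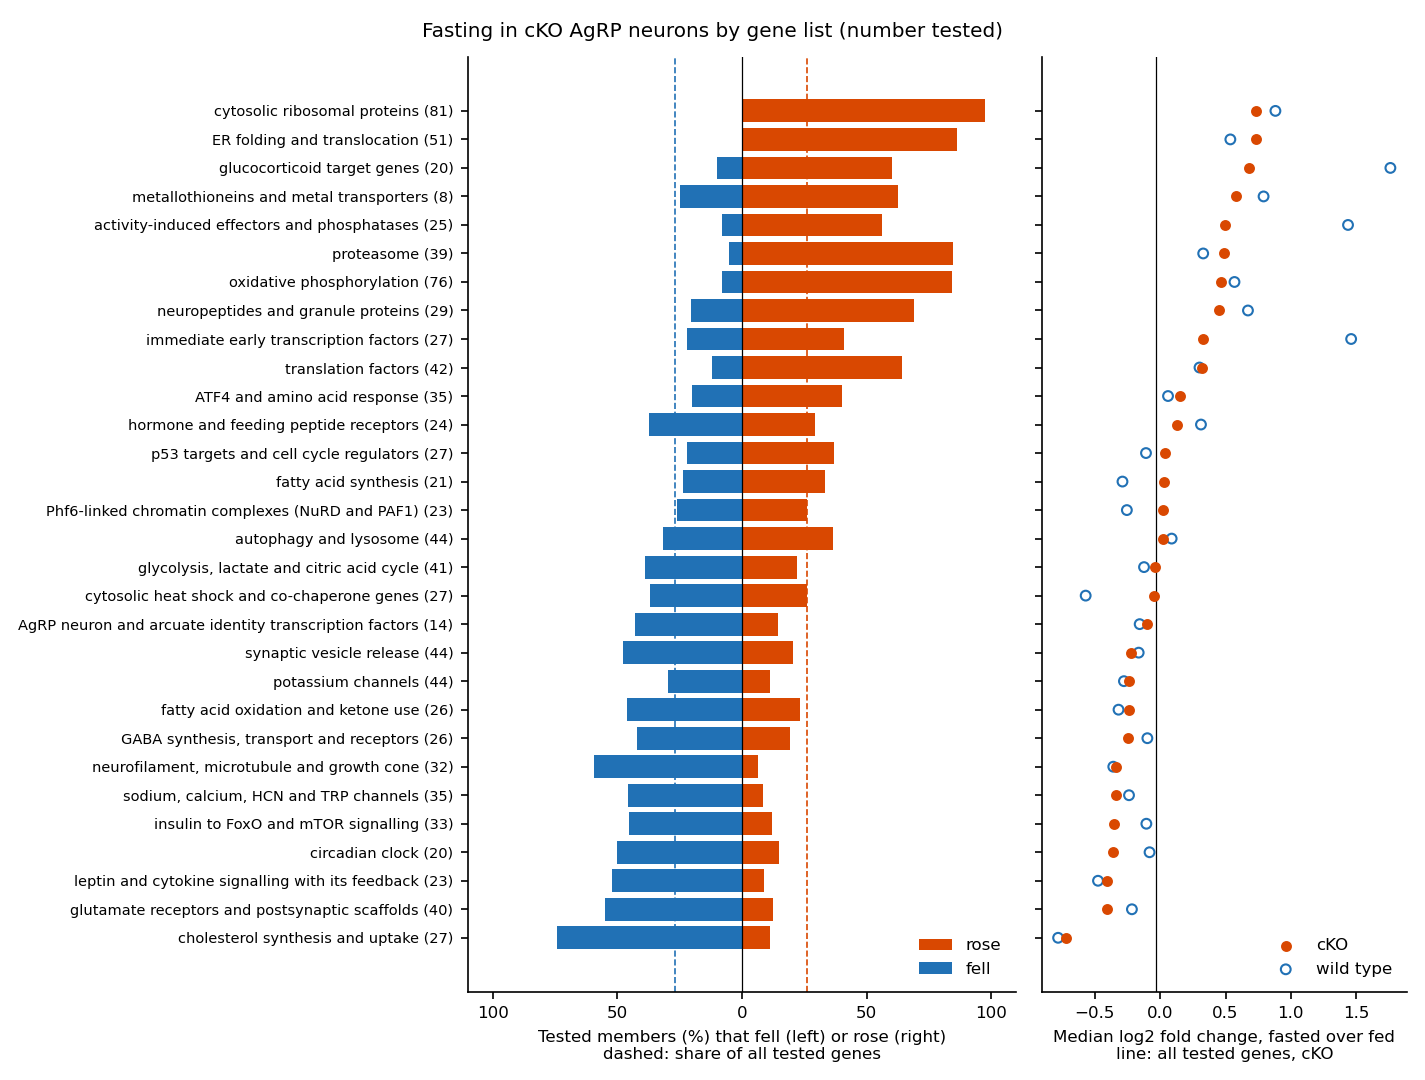
Share of the tested members of each gene list that rose (right) or fell (left) on fasting in cKO neurons, in percent, with dashed lines at the shares of all tested genes (26.0% and 27.0%); right, the median log2 fold change of each list in cKO (filled) and wild type (open). Ribosomal and ER lists lie at the top with cKO medians of 0.73 and 0.73, cholesterol synthesis at the bottom with -0.72.

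Among single genes with a mean of at least 2 log2 CPM and groups that did not overlap, the 15 largest rises were led by Ccdc141, a protein of neuronal migration (3.56 ± 0.36), and Fgf7, a growth factor (3.29 ± 0.37). Cdkn1a, which encodes the cyclin-dependent kinase inhibitor p21, was the next by size. Cdkn1a stood at 44.9, 45.5, 43.9, 41.5 and 46.7 CPM in fed replicates 1 to 5, and at 373, 415, 289, 333 and 295 CPM in fasted replicates 1 to 5. Every fasted library lay above every fed one (log2 fold change 2.94 ± 0.093, adjusted p = 3.29e-19). The cKO means were 44.5 ± 1.97 CPM fed and 341 ± 53.1 CPM fasted. Those of wild type were 4.45 ± 0.686 CPM fed and 316 ± 35.2 CPM fasted. The receptor of the cytokine TWEAK, Tnfrsf12a, rose from 15.7 ± 2.45 to 109.7 ± 21.5 CPM (log2 fold change 2.798 ± 0.13). Spry4, an inhibitor of growth factor signalling, rose from 3.21 ± 1.04 to 20.1 ± 4.001 CPM (log2 fold change 2.65 ± 0.22), and Kcnab1, a subunit that modulates potassium channels, from 26.8 ± 5.49 to 129 ± 22.2 CPM (log2 fold change 2.27 ± 0.18). Cks1b, a partner of cyclin-dependent kinases, rose from 11.3 ± 0.989 to 60.5 ± 8.34 CPM (log2 fold change 2.42 ± 0.13). The chemokine Ccl17 rose from 19.3 ± 2.45 to 93.7 ± 9.1 CPM (log2 fold change 2.27 ± 0.12). Fam107b and Fam159a rose by 2.51 ± 0.10 and 2.29 ± 0.10 on the log2 scale.

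The largest falls included genes of the clock, of transcription and of cytokine feedback. Bhlhe40 stood at 41.9, 36.97, 40.4, 36.1 and 40.4 CPM in fed replicates 1 to 5, and at 2.0, 4.17, 3.36, 5.33 and 2.87 CPM in fasted replicates 1 to 5. This repressor of the circadian system showed the largest fall of the named genes, at -3.45 ± 0.18, adjusted p = 8.45e-15. Mef2c, a transcription factor of neuronal differentiation, fell from 17.7 ± 3.302 to 2.63 ± 1.18 CPM (log2 fold change -2.74 ± 0.23). Plch1, a phospholipase C, fell from 20.7 ± 4.198 to 2.43 ± 1.58 CPM (log2 fold change -3.06 ± 0.25), and Lmo3, a transcriptional cofactor, from 21.5 ± 3.78 to 4.67 ± 3.596 CPM (log2 fold change -2.19 ± 0.30). Hrh3, the histamine H3 receptor, fell from 29.6 ± 4.09 to 6.805 ± 2.48 CPM (log2 fold change -2.11 ± 0.16), and Tppp3, a tubulin-binding protein, from 229 ± 18.7 to 54.6 ± 18.2 CPM (log2 fold change -2.06 ± 0.17). Tnfaip8l3, a lipid transfer protein, fell from 38.6 ± 6.09 to 6.66 ± 3.56 CPM (log2 fold change -2.52 ± 0.22). These falls were deeper in fasted replicates 1 and 2 than in 3 to 5 for Plch1 (-4.64, adjusted p = 4.93e-15, against -2.54, adjusted p = 7.46e-14), Lmo3 (-3.95, adjusted p = 3.2e-13, against -1.65, adjusted p = 2.54e-09) and Tnfaip8l3 (-3.79, adjusted p = 1.34e-16, against -2.05, adjusted p = 1.52e-14). The same held for Mef2c (-3.48 against -2.40), Hrh3 (-2.61 against -1.86) and Tppp3 (-2.70 against -1.76). For Bhlhe40 the values were closer (-3.66 against -3.33). Fgf7 among the rises also leaned on fasted replicates 1 and 2 (3.89, adjusted p = 5.74e-14, against 2.69, adjusted p = 3.81e-09).

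**Figure D2:**
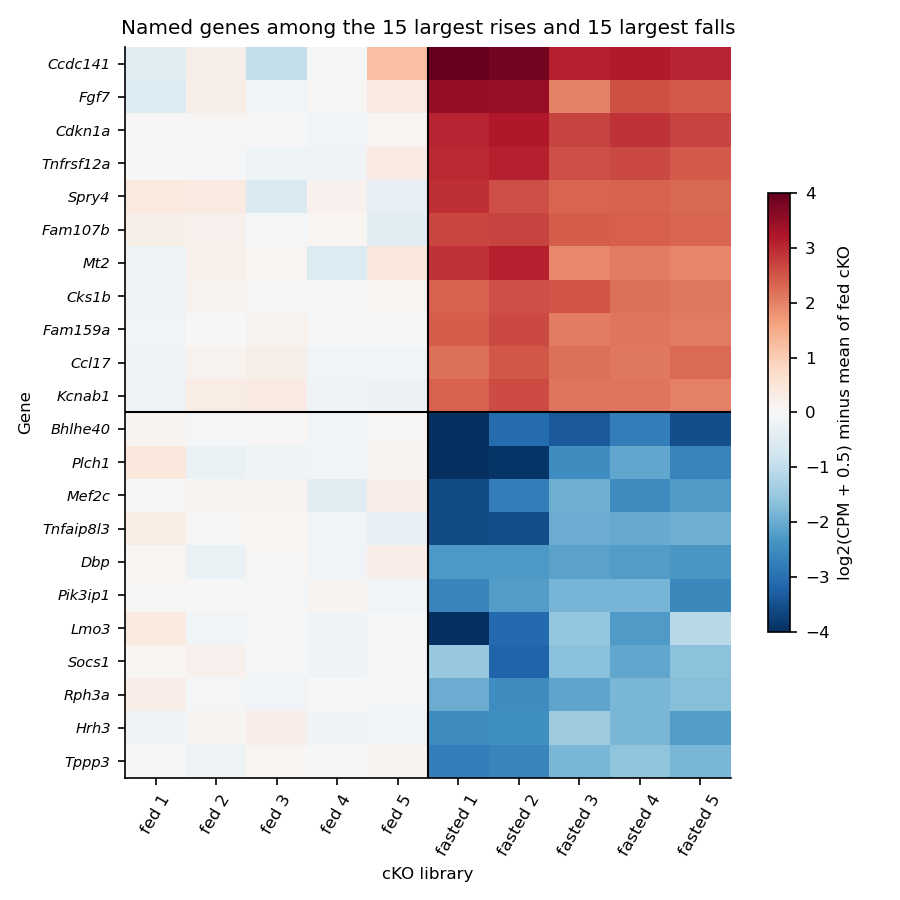
Genes named here among the 15 largest rises (upper rows) and 15 largest falls (lower rows) in the 10 cKO libraries (columns), coloured by log2(CPM + 0.5) minus the mean of the fed cKO libraries. Fasted replicates 1 and 2 are darker than replicates 3 to 5 for several genes, among them Fgf7, Plch1 and Lmo3.

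The peptides that define these neurons rose. Agrp stood at 4369, 5242, 5347, 5100.4 and 5272 CPM in fed replicates 1 to 5, and at 11892, 13744, 10732, 9976 and 10209 CPM in fasted replicates 1 to 5. All fasted libraries exceeded all fed ones, with replicates 1 and 2 the highest (log2 fold change 1.16 ± 0.086, adjusted p = 9.44e-12). Agrp lies at chr8:105566698-105637393, minus strand (GRCm38), and 11.2% of its exon bases are shared with a predicted gene on the same strand. Npy stood at 21486, 25220.5, 24021, 22508 and 24128 CPM in fed replicates 1 to 5, and at 49703, 54359, 43135, 39791 and 39659.5 CPM in fasted replicates 1 to 5. This gene, at chr6:49822710-49829507, plus strand, rose (log2 fold change 0.95 ± 0.093, adjusted p = 1.48e-09), and fasted replicates 1 and 2 were again the highest. After a correction for GC content and gene length the Npy rise was smaller (0.46, adjusted p = 7.61e-06).

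The fasted wild-type libraries showed the same arrangement by number, with Agrp at 17469.9, 17826, 13245, 13105 and 12998 CPM in replicates 1 to 5. Of 29 listed neuropeptides and granule proteins, all tested, 20 rose, 6 fell and 3 did not pass the test, with a median log2 fold change of 0.45. In wild type 20 rose and 5 fell, with a median of 0.67. The interaction passed for 17 of the 29 (58.6%), against 17.3% of all tested genes. The change was lower in the cKO for 14 of the 17 and higher for 3. Vgf, a granule protein cut into peptides that regulate energy balance, was among the largest rises. Vgf stood at 103, 119, 113, 111 and 125 CPM in fed replicates 1 to 5, and at 405, 436, 324, 422 and 374 CPM in fasted replicates 1 to 5. Its groups did not overlap (log2 fold change 1.78 ± 0.079, adjusted p = 3.38e-16). Scg2 stood at 3704, 4176, 3796, 3643 and 3720.1 CPM in fed replicates 1 to 5, and at 8382, 8734, 6509, 6915 and 7197 CPM in fasted replicates 1 to 5. The rise of this granin was 0.99 ± 0.07, adjusted p = 3.92e-12. Pcsk1, the convertase that cleaves peptide precursors, rose from 97.3 ± 8.68 to 181 ± 14.7 CPM (log2 fold change 0.90 ± 0.08), and Nucb2, the precursor of nesfatin-1, from 70.6 ± 4.75 to 189.7 ± 25.02 CPM (log2 fold change 1.42 ± 0.078). Resp18, a granule protein, rose from 5504 ± 178 to 8939 ± 724 CPM (log2 fold change 0.70 ± 0.047), and less after the correction for GC content and length (0.34, adjusted p = 3.15e-08).

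Other peptide genes that rose are better known from other neurons. Galanin (Gal) rose from 12.4 ± 3.79 to 42.5 ± 12.1 CPM (log2 fold change 1.79 ± 0.17), somatostatin (Sst) from 207 ± 89.1 to 719 ± 249.8 CPM (log2 fold change 1.797 ± 0.25), and Cartpt, the precursor of the appetite-suppressing peptide CART, from 304 ± 50.8 to 555 ± 105 CPM (log2 fold change 0.87 ± 0.11). In wild type, Sst and Cartpt did not pass the test, and the difference between genotypes passed it for both (Sst 1.35 ± 0.34, adjusted p = 0.00632; Cartpt 0.79 ± 0.15, adjusted p = 0.000621). With fasted replicates 1 and 2 alone the Cartpt value was 0.56, adjusted p = 7.79e-06, and with 3 to 5 alone 1.05, adjusted p = 7.46e-14. Gal likewise rose less with replicates 1 and 2 (1.31) than with 3 to 5 (2.04). Sst did not (1.84 and 1.77). Pomc, a marker of other arcuate neurons, was also higher in fasted replicates 3 to 5, and the part of such cells in these rises was not tested. The granule genes that fell included Ecel1, an endopeptidase (109 ± 5.46 to 54.2 ± 7.801 CPM, -1.004 ± 0.087), and Chga, a granin that helps form granules (222 ± 12.5 to 177 ± 21.4 CPM, -0.33 ± 0.079). The Chga call was lost after a correction for GC content and gene length (-0.12, adjusted p = 0.141).

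Promoters of 23 of the 29 listed peptide and granule genes were held in the RefSeq table (GRCm38.p6), as 300 bases running from 250 before to 50 after each annotated start. The cAMP response element, searched as TGACGTCA on both strands, was found in 5 of the 23 (Scg2, Chgb, Pcsk1, Sst and Cartpt), or 21.7%, and in 2.03% of all 27025 genes of the table. Of these 5, Chgb was the one that did not pass the fasting test. The Scg2 (chr1:79439977-79440276, minus strand) and Pcsk1 (chr13:75089607-75089906, plus strand) promoters are shown because both genes rose by similar amounts. The capitals mark the element, and a match is a description of the letters, not of a bound site.
Scg2: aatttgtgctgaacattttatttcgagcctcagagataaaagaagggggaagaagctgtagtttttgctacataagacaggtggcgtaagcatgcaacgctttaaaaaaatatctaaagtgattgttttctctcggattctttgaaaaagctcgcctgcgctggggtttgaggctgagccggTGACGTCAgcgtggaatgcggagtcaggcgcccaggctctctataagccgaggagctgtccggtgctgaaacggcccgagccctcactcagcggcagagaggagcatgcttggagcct
Pcsk1: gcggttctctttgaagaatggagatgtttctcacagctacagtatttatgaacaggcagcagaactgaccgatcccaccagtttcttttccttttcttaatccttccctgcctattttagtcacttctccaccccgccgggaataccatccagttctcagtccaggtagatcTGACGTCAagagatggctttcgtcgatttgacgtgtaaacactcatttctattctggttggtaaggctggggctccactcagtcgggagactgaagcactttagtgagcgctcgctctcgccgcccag

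Receptors changed in both directions. Of 24 tested of 27 listed, 7 rose, 9 fell and 8 did not pass the test, with a median log2 fold change of 0.13. The share that rose, 29.2%, was near the 26.0% of all tested genes, and 37.5% fell, against 27.0%. Lepr stood at 87.7, 98.3, 84.8, 89.5 and 92.4 CPM in fed replicates 1 to 5, and at 270.3, 259, 164, 168 and 183 CPM in fasted replicates 1 to 5. The leptin receptor gene rose (1.21 ± 0.13, adjusted p = 1.46e-08), with fasted replicates 1 and 2 above the rest. Ghsr stood at 63.4, 71.2, 69.8, 71.2 and 78.2 CPM in fed replicates 1 to 5, and at 160.0, 191, 131, 119 and 119 CPM in fasted replicates 1 to 5. The ghrelin receptor gene rose too (1.02 ± 0.10, adjusted p = 3.68e-09). Hcrtr2, an orexin receptor, rose from 4.56 ± 1.91 to 14.2 ± 3.15 CPM (log2 fold change 1.62 ± 0.26). Acvr1c, the activin receptor ALK7, rose from 203 ± 11.7 to 333 ± 37.6 CPM (log2 fold change 0.71 ± 0.085), and Npy1r, a receptor of neuropeptide Y, from 28.02 ± 4.29 to 41.97 ± 6.94 CPM (log2 fold change 0.58 ± 0.16).

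Npy2r, Mchr1 and Mc3r were among the receptor genes that fell. Npy2r stood at 389.7, 394, 385, 403 and 381 CPM in fed replicates 1 to 5, and at 120.2, 109.9, 134, 138 and 131 CPM in fasted replicates 1 to 5. Npy2r encodes the Y2 autoreceptor, through which neuropeptide Y and peptide YY restrain these cells, and its groups lay far apart (log2 fold change -1.62 ± 0.079, adjusted p = 2.71e-15). Mchr1 stood at 33.7, 35.2, 31.7, 30.2 and 30.4 CPM in fed replicates 1 to 5, and at 5.75, 7.21, 8.57, 13.1 and 12.2 CPM in fasted replicates 1 to 5. The receptor of melanin-concentrating hormone fell in the cKO (-1.78 ± 0.19, adjusted p = 5.62e-09) and rose in wild type (14.48 ± 1.55 CPM fed and 23.9 ± 7.45 CPM fasted), a difference that passed the interaction test (-2.51 ± 0.26, adjusted p = 1.37e-07). Mc3r, a melanocortin receptor, fell from 91.4 ± 3.13 to 54.04 ± 8.37 CPM (log2 fold change -0.76 ± 0.11).

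Genes of leptin and cytokine signalling, its feedback inhibitors among them, more often fell than rose. Of 23 tested genes, 2 rose, 12 fell and 9 did not pass the test, with a median log2 fold change of -0.41. Socs3 stood at 4.89, 7.45, 8.898, 11.1 and 5.41 CPM in fed replicates 1 to 5, and at 1.0, 0.506, 1.27, 1.25 and 1.55 CPM in fasted replicates 1 to 5. This suppressor of leptin receptor signalling, itself a target of leptin through STAT3, was near the floor in fasted libraries (log2 fold change -2.73 ± 0.33, adjusted p = 5.58e-08). Socs1 and Cish, of the same family, fell from 8.84 ± 0.781 to 1.98 ± 0.912 CPM (log2 fold change -2.15 ± 0.27) and from 17.1 ± 1.77 to 6.19 ± 1.42 CPM (log2 fold change -1.46 ± 0.21). The transducers Stat5b and Stat3 fell from 29.3 ± 1.66 to 11.99 ± 1.95 CPM (log2 fold change -1.29 ± 0.13) and from 198 ± 15.2 to 141 ± 4.74 CPM (log2 fold change -0.48 ± 0.065). Cish shares 11.5% of its exon bases with a gene on the opposite strand, from which these unstranded reads cannot be separated.

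Genes between the insulin receptor, FoxO and mTOR mostly fell or did not pass. Of 33 tested of 35 listed, 4 rose, 15 fell and 14 did not pass the test, with a median log2 fold change of -0.35. The median moved to -0.16 after correction for GC content and length, and to -0.16 with fasted replicates 1 and 2 alone. Pik3ip1, a negative regulator of PI3-kinase, fell from 23.2 ± 1.45 to 4.66 ± 1.34 CPM (log2 fold change -2.304 ± 0.16), and more than in wild type (16.9 ± 1.4 CPM fed and 9.11 ± 1.53 CPM fasted, interaction -1.41 ± 0.21, adjusted p = 3.64e-05). Irs2, an adaptor of the insulin receptor, fell from 38.8 ± 2.604 to 23.8 ± 4.79 CPM (log2 fold change -0.70 ± 0.12), or -0.44, adjusted p = 0.00248 after that correction. Foxo1, the transcription factor that insulin holds out of the nucleus, rose from 106 ± 4.92 to 138 ± 8.46 CPM (log2 fold change 0.38 ± 0.069), as did Rheb, the GTPase that activates mTORC1, from 341 ± 18.3 to 504 ± 18.04 CPM (log2 fold change 0.57 ± 0.05).

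Immediate early genes are transcribed within minutes of neuronal firing, and their fasting response in the cKO differed from that in wild type. Fos, Egr1 and Nr4a1 were higher in every fed cKO library than in every fed wild-type one, and none of them passed the test for a rise on fasting in the cKO. Fos stood at 114, 123, 111, 126 and 128 CPM in fed replicates 1 to 5, and at 60.9, 41.1, 64.8, 67.98 and 69.6 CPM in fasted replicates 1 to 5. Fos fell on fasting, with every fasted library below every fed one (log2 fold change -0.98 ± 0.11, adjusted p = 9.39e-09). In wild type it rose (2.91 ± 0.712 CPM fed and 151 ± 14.4 CPM fasted), and the difference between genotypes was -6.68 ± 0.18, adjusted p = 3.72e-21. Fos lies at chr12:85473890-85477273, plus strand.

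Egr1 and Nr4a1 did not pass the test in the cKO. Egr1 stood at 31.2, 48.6, 33.8, 34.1 and 31.8 CPM in fed replicates 1 to 5, and at 49.8, 43.1, 49.01, 46.2 and 37.01 CPM in fasted replicates 1 to 5. The groups overlapped (log2 fold change 0.33 ± 0.14, adjusted p = 0.05), and the call depends on the setting: Egr1 passed under 7 alternatives beside 2 fits without 1 library each, and its adjusted p ranged up to 0.12. The value was 0.59, adjusted p = 0.0013 after GC and length correction, 0.37, adjusted p = 0.0455 with fasted replicates 1 and 2 alone and 0.30, adjusted p = 0.0658 with 3 to 5 alone. Nr4a1 stood at 18.6, 12.3, 14.4, 17.4 and 8.04 CPM in fed replicates 1 to 5, and at 8.25, 10.2, 11.9, 15.8 and 13.7 CPM in fasted replicates 1 to 5. The groups overlapped here as well (-0.23 ± 0.22, adjusted p = 0.388). Wild-type levels were 0.805 ± 0.443 CPM fed and 48.01 ± 7.702 CPM fasted for Egr1, and 0.505 ± 0.321 CPM fed and 16.4 ± 3.79 CPM fasted for Nr4a1. The interaction was -5.59 ± 0.26, adjusted p = 3.21e-15 for Egr1 and -5.195 ± 0.38, adjusted p = 1.88e-10 for Nr4a1.

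The AP-1 partners went separate ways. Jun fell from 51.2 ± 5.297 to 27.02 ± 2.77 CPM (log2 fold change -0.92 ± 0.086) and Junb from 54.2 ± 2.27 to 43.2 ± 4.58 CPM (log2 fold change -0.32 ± 0.10), although the Junb call was lost after GC and length correction (-0.09, adjusted p = 0.511). Fosl2 stood at 7.42, 7.45, 7.43, 7.24 and 5.62 CPM in fed replicates 1 to 5, and at 29.1, 29.2, 33.02, 26.4 and 24.6 CPM in fasted replicates 1 to 5. Fosl2, a slower member of the Fos family, rose (2.02 ± 0.19, adjusted p = 6.8e-10), and Fosb rose from 1.15 ± 0.498 to 10.9 ± 3.69 CPM (log2 fold change 3.26 ± 0.33). The cAMP-responsive factor Crem rose from 146 ± 5.92 to 282 ± 31.6 CPM (log2 fold change 0.95 ± 0.11), Nfil3, a repressor linked to the clock, from 22.1 ± 1.83 to 64.3 ± 7.77 CPM (log2 fold change 1.54 ± 0.10), and Atf3, a stress-induced factor, from 9.33 ± 3.83 to 21.5 ± 7.71 CPM (log2 fold change 1.197 ± 0.26). Atf3 fell in wild type (5.95 ± 2.09 CPM fed and 3.63 ± 1.101 CPM fasted; interaction 1.91 ± 0.41, adjusted p = 0.0015).

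Over the list, 27 of 30 immediate early transcription factors were tested. Of these, 11 rose, 6 fell and 10 did not pass the test, with a median log2 fold change of 0.33. With fasted replicates 1 and 2 alone the median was 0.50, and after GC and length correction 0.53. In wild type 19 rose (29.6% of all tested genes rose there) and 4 fell (31.3% fell), with a median of 1.46. The interaction of genotype and fasting passed for 16 of the 27, against 17.3% of all tested genes, and in 14 of those 16 the change was lower in the cKO.

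**Figure D3:**
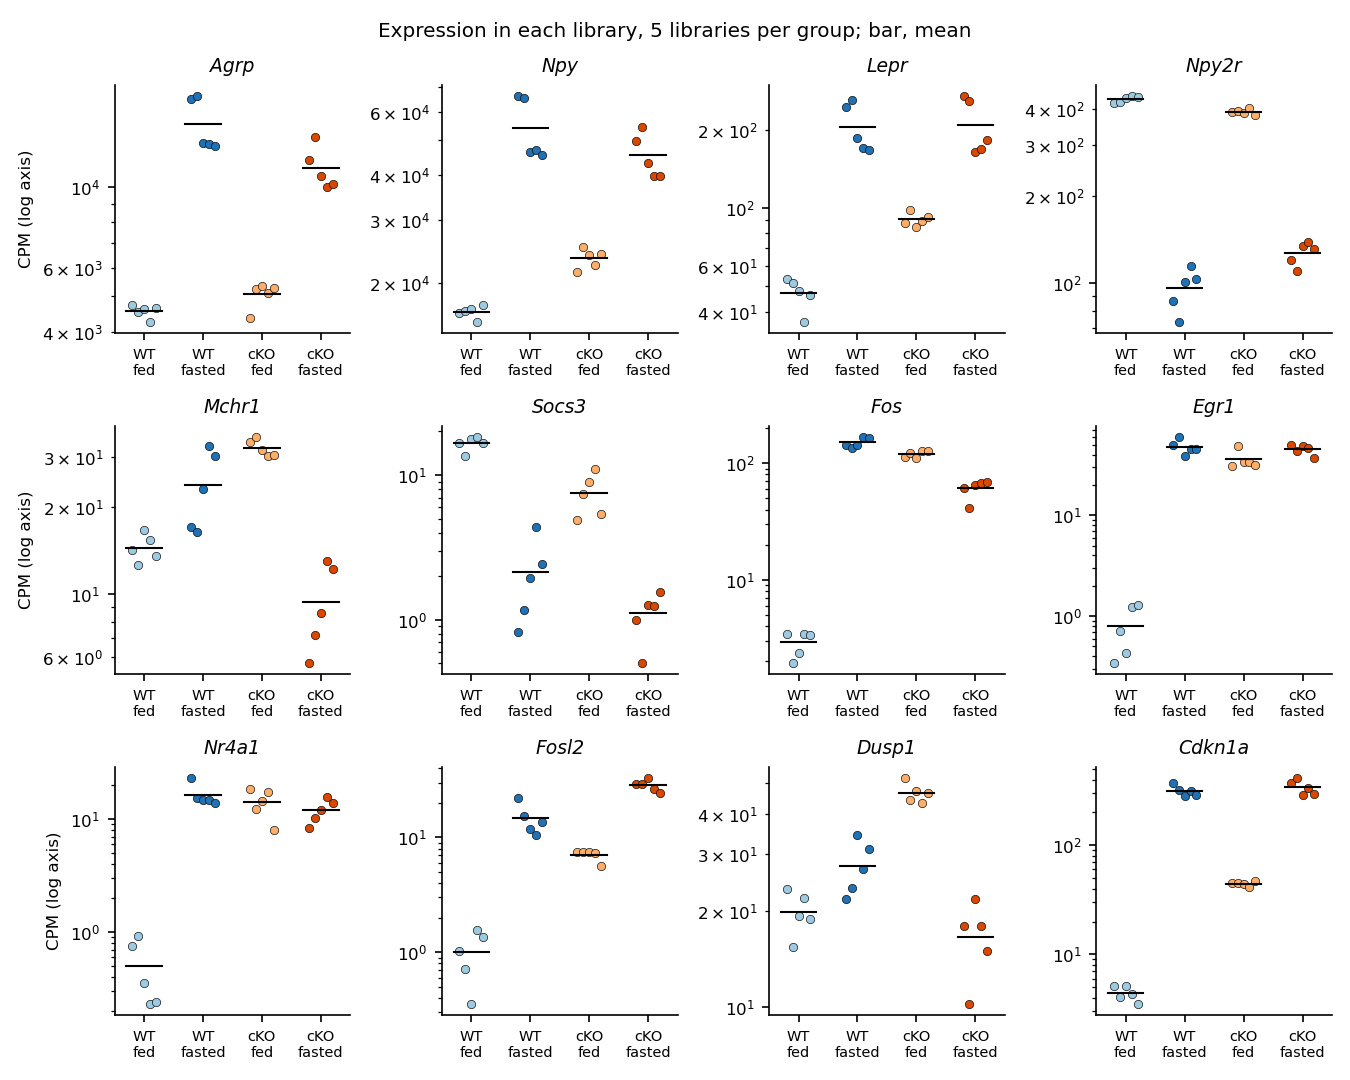
Level of 12 genes in each library (points, CPM on a log axis) in the 4 groups of 5 libraries, with bars at the means. Fos, Egr1 and Nr4a1 are low in fed wild-type libraries alone, while Agrp, Npy, Lepr and Cdkn1a are higher in fasted libraries of both genotypes.

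Effectors downstream of activity mostly rose. Of 25 tested of 30 listed, 14 rose, 2 fell and 9 did not pass the test, with a median log2 fold change of 0.50, and the median was 0.87 with fasted replicates 1 and 2 alone. In wild type 23 rose and 2 fell, with a median of 1.44. The interaction passed for 10 of the 25 (40%), against 17.3% of all tested genes, each with a lower change in the cKO. Gadd45a, a stress sensor in the growth arrest family, rose from 7.34 ± 0.84 to 18.2 ± 0.777 CPM (log2 fold change 1.31 ± 0.13), and 19.1% of its exon bases lie over an opposite-strand gene. Dusp1 stood at 51.8, 44.3, 47.3, 43.4 and 46.3 CPM in fed replicates 1 to 5, and at 17.9, 10.2, 21.8, 17.9 and 14.9 CPM in fasted replicates 1 to 5. Dusp1, the phosphatase that switches off MAP kinases, was an exception and fell (-1.49 ± 0.15, adjusted p = 1.92e-09), and in wild type it rose (19.7 ± 3.05 CPM fed and 27.6 ± 5.26 CPM fasted).

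Targets of the glucocorticoid receptor mostly rose. Corticosterone climbs in fasted mice and acts on these neurons through that receptor. Of 20 tested of 23 listed genes, 12 rose, 2 fell and 6 did not pass the test, with a median log2 fold change of 0.68. The kinase gene Sgk1 rose from 166 ± 7.74 to 287 ± 24.8 CPM (log2 fold change 0.79 ± 0.07), and Fkbp5, a co-chaperone that dampens the receptor, from 20.9 ± 1.39 to 74.6 ± 18.3 CPM (log2 fold change 1.84 ± 0.12). Tsc22d3, also a classic target, fell from 59.9 ± 3.05 to 42.01 ± 2.34 CPM (log2 fold change -0.51 ± 0.069). Per1 did not pass, at 13.5 ± 1.84 and 15.2 ± 1.87 CPM (log2 fold change 0.17 ± 0.14, adjusted p = 0.34), but passed after GC and length correction (0.50, adjusted p = 0.00584). Of the 20, 13 (65%) passed the interaction test, against 17.3% of all tested genes, each with a lower change in the cKO. For Sgk1 the wild-type values were 44.3 ± 2.98 CPM fed and 318 ± 33.6 CPM fasted and the interaction was -2.06 ± 0.10, adjusted p = 6.74e-15, whereas that of Fkbp5 did not pass (-0.20 ± 0.17, adjusted p = 0.443).

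The metallothioneins, small proteins that bind zinc and copper and are induced by metals and by glucocorticoids, rose. Mt1 stood at 106, 112, 114, 94.2 and 147 CPM in fed replicates 1 to 5, and at 691, 731, 390.5, 413 and 385 CPM in fasted replicates 1 to 5. Fasted replicates 1 and 2 were the highest, and no fasted library reached down to the fed ones (log2 fold change 2.18 ± 0.15, adjusted p = 3.45e-12). Wild-type Mt1 stood at 16.03 ± 0.983 CPM fed and 483 ± 85.98 CPM fasted, and wild-type Mt2 at 3.22 ± 0.493 and 158 ± 41.99 CPM. Mt2 stood at 21.5, 28.5, 26.2, 16.8 and 34.05 CPM in fed replicates 1 to 5, and at 187, 219, 95.6, 106 and 96.5 CPM in fasted replicates 1 to 5. Fasted replicates 1 and 2 were again the highest for this neighbouring gene (2.46 ± 0.21, adjusted p = 1.37e-10), but 73.5% of its exon bases lie over a gene on the opposite strand, so its reads may in part belong to that gene. Of 8 tested of 11 listed genes of metal handling, 5 rose, 2 fell and 1 did not pass the test, with a median log2 fold change of 0.58.

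Mt1 (chr8:94179082-94180327, plus strand) and Mt2 (chr8:94172664-94173568, plus strand) are adjacent, and their promoters are shown because the pair moved together. The metal response element was searched with a loose pattern, TGCNCNC, in which N is any base, on both strands. The Mt1 promoter window (chr8:94178839-94179138, plus strand) held 3 matches and that of Mt2 (chr8:94172368-94172667, plus strand) 6. At least 1 match was found in 53.6% of all genes in the table, 3 or more in 8.04% and 6 or more in 0.263%. Capitals mark the matches.
Mt1: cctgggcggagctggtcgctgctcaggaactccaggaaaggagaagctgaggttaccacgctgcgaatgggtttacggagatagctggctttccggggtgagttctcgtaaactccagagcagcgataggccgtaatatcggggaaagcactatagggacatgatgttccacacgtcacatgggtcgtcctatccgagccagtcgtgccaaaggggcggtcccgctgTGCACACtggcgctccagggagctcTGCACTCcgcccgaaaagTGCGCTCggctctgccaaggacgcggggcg
Mt2: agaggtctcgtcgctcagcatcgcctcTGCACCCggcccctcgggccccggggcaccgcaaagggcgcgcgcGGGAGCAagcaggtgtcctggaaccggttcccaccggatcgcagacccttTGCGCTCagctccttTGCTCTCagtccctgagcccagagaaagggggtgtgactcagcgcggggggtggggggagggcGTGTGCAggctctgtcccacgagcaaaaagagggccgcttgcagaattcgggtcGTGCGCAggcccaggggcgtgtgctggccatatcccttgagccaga

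Clock genes more often fell than rose. Of 20 tested clock genes, 3 rose, 10 fell and 7 did not pass the test, with a median log2 fold change of -0.36. After correction for GC content and length the median was -0.18. The hour at which each sample was taken is not given in the sources used here. Beside Bhlhe40, the output factor Dbp fell from 25.9 ± 3.71 to 4.98 ± 0.308 CPM (log2 fold change -2.37 ± 0.16), Per3 from 17.6 ± 2.91 to 4.56 ± 1.18 CPM (log2 fold change -1.94 ± 0.22), the nuclear receptor Nr1d1 from 39.98 ± 4.58 to 16.04 ± 1.89 CPM (log2 fold change -1.32 ± 0.13) and Ciart, a repressor, from 15.02 ± 3.84 to 6.03 ± 1.36 CPM (log2 fold change -1.32 ± 0.19). Dbp shares 18% of its exon bases with Sphk2 on the opposite strand. The repressor Cry1 rose from 5.99 ± 1.26 to 12.9 ± 1.18 CPM (log2 fold change 1.095 ± 0.21), and Rorb, a nuclear receptor, from 2.901 ± 1.68 to 13.4 ± 2.58 CPM (log2 fold change 2.21 ± 0.25). Per2 did not pass in the cKO, at 7.805 ± 1.55 and 5.901 ± 1.66 CPM (log2 fold change -0.40 ± 0.21, adjusted p = 0.113), and rose in wild type (3.73 ± 0.769 CPM fed and 12.6 ± 2.68 CPM fasted; interaction -2.15 ± 0.30, adjusted p = 1.23e-05). Without fed replicate 3 it passed, with a log2 fold change of -0.52. The canonical E-box, CACGTG, was found in 5 of the 17 clock genes with a promoter in the table (29.4%) and in 8.09% of all genes. Those 5 were Per1, Cry1, Tef, Bhlhe41 and Ciart. The share was not particular to clock genes. It was 29.4% for autophagy and lysosome, 28.6% for p53 targets and cell cycle regulators and 26.5% for translation factors. In other lists it ranged down to 0%, as for leptin signalling.

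The machinery that makes, folds and degrades proteins rose broadly. Of 51 ER folding and translocation genes, 44 rose, 0 fell and 7 did not pass the test, with a median log2 fold change of 0.73. Manf stood at 209, 224, 251, 223 and 249.9 CPM in fed replicates 1 to 5, and at 687, 769, 637, 613 and 657 CPM in fasted replicates 1 to 5. This secreted ER stress protein rose, and the groups did not overlap (log2 fold change 1.54 ± 0.092, adjusted p = 1.49e-13). The channel subunit Sec61b rose from 214 ± 17.2 to 562 ± 49.6 CPM (log2 fold change 1.39 ± 0.08), the co-chaperone Dnajb9 from 125 ± 5.87 to 318 ± 16.2 CPM (log2 fold change 1.34 ± 0.058), and Hspa5, the main ER chaperone BiP, from 1182 ± 25.3 to 2098 ± 147 CPM (log2 fold change 0.83 ± 0.07). Xbp1, a transcription factor of the unfolded protein response, rose from 293 ± 6.99 to 490.4 ± 22.5 CPM (log2 fold change 0.74 ± 0.059). Creld2, another ER stress protein, rose from 39.8 ± 4.66 to 83.9 ± 11.6 CPM (log2 fold change 1.08 ± 0.11) and fell in wild type (56.2 ± 4.62 CPM fed and 37.98 ± 6.97 CPM fasted; interaction 1.64 ± 0.15, adjusted p = 2.33e-08). Of the 51 genes, 10 passed the interaction test, or 19.6%, close to the 17.3% of all tested genes, and 9 of the 10 had the higher change in the cKO.

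Of 81 tested ribosomal protein genes, 79 rose, 0 fell and 2 did not pass the test, with a median log2 fold change of 0.73. Rpl36al had the largest rise of the list, from 202 ± 12.7 to 500.4 ± 51.97 CPM (log2 fold change 1.31 ± 0.079), with 24.5% of its exon bases shared with another gene on the same strand. Rpl3 was 1 of the 2 that did not pass, at 1172 ± 25.97 and 1249.8 ± 69.4 CPM (log2 fold change 0.09 ± 0.053, adjusted p = 0.141), and Rpl30 was the other. Rpl3 passed after GC and length correction (0.15, adjusted p = 0.00454) and with fasted replicates 3 to 5 alone (0.15, adjusted p = 0.000498), but not with 1 and 2 alone (0.01, adjusted p = 0.91). Ribosomal protein genes have many near-identical processed copies, and how reads that fit several places were counted is not given in the sources used here. Among 42 tested translation factors, 27 rose, 5 fell and 10 did not pass the test, with a median log2 fold change of 0.32. Eif2s2, the beta subunit of initiation factor 2, rose from 90.9 ± 3.56 to 193 ± 16.1 CPM (log2 fold change 1.09 ± 0.072), and Eef2, the translocating elongation factor, fell from 241 ± 4.12 to 187 ± 10.8 CPM (log2 fold change -0.37 ± 0.072), or -0.15, adjusted p = 0.0276 after the correction.

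Of 76 tested oxidative phosphorylation genes, 64 rose, 6 fell and 6 did not pass the test, with a median log2 fold change of 0.47. Cox7c, a small subunit of cytochrome c oxidase, rose from 237.97 ± 16.1 to 425 ± 41.3 CPM (log2 fold change 0.84 ± 0.065), and Sdha, the catalytic subunit of succinate dehydrogenase, fell from 502 ± 34.5 to 304 ± 44.2 CPM (log2 fold change -0.72 ± 0.13). The Sdha value was -0.95, adjusted p = 2.84e-14 with fasted replicates 1 and 2 alone and -0.59, adjusted p = 1.14e-10 with 3 to 5 alone. Ndufs1, Atp5b, Cyc1 and Atp5a1 also fell. Correction for GC content and length lowered these values: the list's median became 0.21, that of ribosomal proteins 0.56, and the Cox7c change 0.24, adjusted p = 0.00079. Of 39 proteasome genes, 33 rose, 2 fell and 4 did not pass the test, with a median log2 fold change of 0.49. Psmb3, a core subunit, rose from 280.5 ± 10.3 to 541 ± 28.95 CPM (log2 fold change 0.95 ± 0.049), and Psmd3, a subunit of the regulatory particle, fell from 101 ± 5.14 to 72.4 ± 7.31 CPM (log2 fold change -0.48 ± 0.10), or -0.27, adjusted p = 0.0183 after the correction. Genes of ATF4 and the amino acid response split: of 35 tested, 14 rose, 7 fell and 14 did not pass the test, with a median log2 fold change of 0.15. Atf4 itself rose from 101 ± 7.54 to 144 ± 14.4 CPM (log2 fold change 0.51 ± 0.07), Ddit3, the stress factor CHOP, from 40.99 ± 4.41 to 72.02 ± 4.15 CPM (log2 fold change 0.81 ± 0.076), and Pck2, a mitochondrial enzyme, fell from 30.9 ± 3.68 to 12.7 ± 3.31 CPM (log2 fold change -1.28 ± 0.14).

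Cytosolic heat shock genes changed in both directions in the cKO. Of 27 tested, 7 rose, 10 fell and 10 did not pass the test, with a median log2 fold change of -0.04. The share that rose, 25.9%, was near the 26.0% of all tested genes, and 37% fell, against 27.0%. In wild type 0 rose, 20 fell and the median was -0.57. The interaction passed for 18 of the 27 (66.7%), against 17.3% of all tested genes, and in all 18 the change was higher in the cKO. Hsph1 stood at 491, 437, 417, 442 and 452 CPM in fed replicates 1 to 5, and at 227, 213, 215, 237 and 254 CPM in fasted replicates 1 to 5. This partner of HSP70 fell (-0.97 ± 0.074, adjusted p = 1.6e-11), though less than in wild type (563 ± 16.9 CPM fed and 166 ± 25.1 CPM fasted; interaction 0.80 ± 0.10, adjusted p = 5.46e-06). Stip1, which links HSP70 to HSP90, fell from 654 ± 13.61 to 417 ± 27.96 CPM (log2 fold change -0.65 ± 0.053). Dnaja1 stood at 784, 757, 778, 722 and 728 CPM in fed replicates 1 to 5, and at 826, 942, 836, 904 and 868 CPM in fasted replicates 1 to 5. This HSP40 rose by 0.22 ± 0.05, adjusted p = 0.00067, while it fell in wild type (843 ± 28.3 CPM fed and 697 ± 44.7 CPM fasted; interaction 0.49 ± 0.071, adjusted p = 2.05e-05). Cacybp, a co-chaperone of the same list, rose from 662 ± 22.5 to 816 ± 37.4 CPM (log2 fold change 0.30 ± 0.046), and the small heat shock protein Hspb1 from 8.98 ± 0.293 to 17.2 ± 4.18 CPM (log2 fold change 0.93 ± 0.15).

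The Dnaja1 and Cacybp calls were lost after GC and length correction (0.08, adjusted p = 0.193; 0.02, adjusted p = 0.753), which also moved the list's median to -0.21. With fasted replicates 3 to 5 alone the median was -0.20. Dnaja1 shares 10.8% of its exon bases with Smu1 on the opposite strand. Hspa8, the abundant constitutive HSP70, stood at 5289.6 ± 126 and 5243 ± 241 CPM (log2 fold change -0.01 ± 0.08, adjusted p = 0.909). Chordc1, an HSP90 co-chaperone, stood at 158 ± 5.47 and 145 ± 17.96 CPM (log2 fold change -0.12 ± 0.13, adjusted p = 0.439) and fell in wild type (234 ± 10.3 CPM fed and 71.98 ± 24.3 CPM fasted; interaction 1.58 ± 0.18, adjusted p = 1.13e-06). The sets of fasted libraries disagreed on Chordc1 (0.06, adjusted p = 0.462 with replicates 1 and 2, -0.25, adjusted p = 0.00197 with 3 to 5), and it passed after the correction (-0.32, adjusted p = 0.0153). A heat shock element core, GAANNTTC, was found in 12 of the 21 listed genes with a promoter in the table (57.1%) and in 9.04% of all genes. The Hsph1 promoter (chr5:149636266-149636565, minus strand) is 1 of 2 listed for the gene and is shown as that of a member whose fall differed between genotypes, with the element in capitals.
Hsph1: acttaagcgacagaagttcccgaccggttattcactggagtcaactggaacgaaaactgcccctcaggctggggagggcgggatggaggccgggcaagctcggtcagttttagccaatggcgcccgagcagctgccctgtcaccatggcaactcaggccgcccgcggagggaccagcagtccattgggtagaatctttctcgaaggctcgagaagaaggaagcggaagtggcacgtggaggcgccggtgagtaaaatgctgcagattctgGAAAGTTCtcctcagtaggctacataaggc

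Most genes of cholesterol synthesis and uptake fell. Of 27 tested of 28 listed genes, 3 rose, 20 fell and 4 did not pass the test, with a median log2 fold change of -0.72. With fasted replicates 1 and 2 alone the median was -0.997, and with 3 to 5 alone -0.60. Hmgcs1 stood at 189, 166, 142, 171 and 151 CPM in fed replicates 1 to 5, and at 74.1, 73.9, 83.3, 82.8 and 97.1 CPM in fasted replicates 1 to 5. The enzyme that makes HMG-CoA fell with no overlap (log2 fold change -0.99 ± 0.093, adjusted p = 7.43e-10), less than in wild type (181 ± 8.57 CPM fed and 45.1 ± 8.34 CPM fasted; interaction 1.02 ± 0.13, adjusted p = 5.61e-06). Srebf2, the transcription factor that drives the pathway, fell from 33.3 ± 3.69 to 10.7 ± 1.42 CPM (log2 fold change -1.64 ± 0.13). Sqle, squalene epoxidase, fell from 77.4 ± 4.17 to 44.1 ± 9.98 CPM (log2 fold change -0.81 ± 0.11). A sterol response element, TCACNCCAC, was found in 1 of the 20 listed genes with a promoter in the table, Hmgcs1, and in 1.44% of all genes. The window (chr13:119690101-119690400, plus strand) is shown with that element in capitals. For Hmgcs1, 12.1% of the exon bases lie over a predicted gene on the opposite strand.
Hmgcs1: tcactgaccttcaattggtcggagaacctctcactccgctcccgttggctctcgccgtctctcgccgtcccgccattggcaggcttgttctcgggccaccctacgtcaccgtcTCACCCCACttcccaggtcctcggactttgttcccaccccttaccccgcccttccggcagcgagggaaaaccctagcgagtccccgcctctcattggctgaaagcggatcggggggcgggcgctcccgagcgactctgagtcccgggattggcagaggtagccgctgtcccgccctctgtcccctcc

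Other fuel pathways split. Among all tested genes 26.0% rose and 27.0% fell. The shares were 33.3% and 23.8% for fatty acid synthesis and 23.1% and 46.2% for fatty acid oxidation. They were 22% and 39% for the glycolysis list and 36.4% and 31.8% for autophagy and lysosome. Of 21 fatty acid synthesis genes, 7 rose, 5 fell and 9 did not pass the test, with a median log2 fold change of 0.03, and Scd1, a desaturase, rose from 1.299 ± 0.604 to 8.499 ± 3.68 CPM (log2 fold change 2.69 ± 0.32). Of 26 tested genes of fatty acid oxidation and ketone use, 6 rose, 12 fell and 8 did not pass the test, with a median log2 fold change of -0.24. Cpt1c, the neuronal form of carnitine palmitoyltransferase, fell from 82.4 ± 2.81 to 43.2 ± 4.54 CPM (log2 fold change -0.93 ± 0.076). Ucp2, a mitochondrial carrier tied to ghrelin's action on these neurons, fell from 366 ± 16.3 to 289.8 ± 12.7 CPM (log2 fold change -0.34 ± 0.06), and that call was lost after GC and length correction (-0.12, adjusted p = 0.0787). Ppargc1a, the coactivator PGC-1alpha, rose from 13.2 ± 1.23 to 22.97 ± 4.67 CPM (log2 fold change 0.80 ± 0.15). Of 41 tested genes of glycolysis, lactate and the citric acid cycle, 9 rose, 16 fell and 16 did not pass the test, with a median log2 fold change of -0.04. Pfkl, a phosphofructokinase, fell from 106 ± 8.25 to 38.4 ± 7.21 CPM (log2 fold change -1.46 ± 0.091), Pkm, pyruvate kinase, from 984 ± 21.3 to 539 ± 84.2 CPM (log2 fold change -0.87 ± 0.14), and Pdk2, a kinase that inhibits pyruvate dehydrogenase, from 34.96 ± 2.58 to 10.4 ± 1.7 CPM (log2 fold change -1.75 ± 0.14). Mdh1, malate dehydrogenase, rose from 2004 ± 85.9 to 2851 ± 94.4 CPM (log2 fold change 0.51 ± 0.041). Of 44 tested autophagy and lysosome genes, 16 rose, 14 fell and 14 did not pass the test, with a median log2 fold change of 0.02.

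Genes of excitability and synapses more often fell than rose. Of 44 tested potassium channel genes, 5 rose, 13 fell and 26 did not pass the test, with a median log2 fold change of -0.24. The share that fell, 29.5%, was near the 27.0% of all tested genes, and 11.4% rose, against 26.0%. The median was -0.12 after GC and length correction and -0.03 with fasted replicates 1 and 2 alone. The leak channel Kcnk1 rose from 42.1 ± 4.03 to 96.6 ± 18.03 CPM (log2 fold change 1.196 ± 0.11), while Kcnd2, which carries A-type current, fell from 48.6 ± 5.35 to 26.4 ± 2.97 CPM (log2 fold change -0.88 ± 0.10). Of 35 sodium, calcium, HCN and TRP channel genes, 3 rose, 16 fell and 16 did not pass the test, with a median log2 fold change of -0.34. The calcium channel subunit Cacna2d3 fell from 35.05 ± 3.84 to 12.1 ± 2.89 CPM (log2 fold change -1.53 ± 0.18), and the sodium channel Scn9a from 322 ± 10.7 to 176 ± 4.41 CPM (log2 fold change -0.87 ± 0.071). Of 40 tested glutamate receptor and scaffold genes, 5 rose, 22 fell and 13 did not pass the test, with a median log2 fold change of -0.41, and the median was -0.18 after GC and length correction. Camk2a, a kinase of synaptic plasticity, fell from 36.7 ± 3.18 to 16.7 ± 2.58 CPM (log2 fold change -1.13 ± 0.10).

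Of 26 GABA genes, 5 rose, 11 fell and 10 did not pass the test, with a median log2 fold change of -0.25. Gad1, which makes GABA, did not pass, at 399.6 ± 18.4 and 339 ± 66.5 CPM (log2 fold change -0.24 ± 0.14, adjusted p = 0.141), and that call depends on the setting. Gad1 stood at 401, 403, 396, 425 and 374 CPM in fed replicates 1 to 5, and at 264, 269.6, 403, 386 and 371 CPM in fasted replicates 1 to 5. Fasted replicates 1 and 2 lay below all other cKO libraries. With those 2 alone Gad1 fell (-0.58, adjusted p = 5.06e-10), and with 3 to 5 alone it did not pass (-0.04, adjusted p = 0.552). Slc32a1, which loads GABA into vesicles, was low and fell from 8.13 ± 0.605 to 5.77 ± 1.38 CPM (log2 fold change -0.50 ± 0.17). That call was lost without fasted replicate 3, with fasted replicates 1 and 2 alone (-0.49, adjusted p = 0.0617) and after GC and length correction (-0.22, adjusted p = 0.285), and 24.9% of its exon bases lie over an opposite-strand gene. Of 44 tested vesicle release genes, 9 rose, 21 fell and 14 did not pass the test, with a median log2 fold change of -0.22. Rph3a, an effector of Rab3, fell from 19.2 ± 2.26 to 4.42 ± 0.94 CPM (log2 fold change -2.11 ± 0.15), Syn2, a synapsin, fell from 146 ± 7.26 to 66.5 ± 11.6 CPM (log2 fold change -1.13 ± 0.095), and Rab3b rose from 419 ± 16.3 to 1023 ± 35.4 CPM (log2 fold change 1.29 ± 0.066). Of 32 tested cytoskeletal genes, 2 rose, 19 fell and 11 did not pass the test, with a median log2 fold change of -0.34. The tubulin gene Tubb2b fell from 55.1 ± 2.92 to 20.04 ± 3.26 CPM (log2 fold change -1.46 ± 0.17), and Mapt, which encodes tau, from 298 ± 8.37 to 157 ± 9.42 CPM (log2 fold change -0.92 ± 0.058).

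Transcription factors of AgRP neuron identity were tested for 14 of 30 listed, and 2 rose, 6 fell and 6 did not pass the test, with a median log2 fold change of -0.10. Bsx, a homeobox factor required for normal Agrp and Npy levels, fell from 12.2 ± 1.32 to 5.84 ± 2.23 CPM (log2 fold change -1.05 ± 0.19) and did not pass in wild type (9.25 ± 1.14 CPM fed and 8.96 ± 1.73 CPM fasted; interaction -1.01 ± 0.27, adjusted p = 0.00873). Isl1, a homeobox factor of arcuate neurons, rose from 168 ± 8.88 to 222 ± 6.39 CPM (log2 fold change 0.40 ± 0.057), and Otp stood at 23.3 ± 2.63 and 22.6 ± 2.96 CPM (log2 fold change -0.04 ± 0.11, adjusted p = 0.763). Among 23 genes of the NuRD and PAF1 complexes, with which PHF6 is found, 6 rose, 6 fell and 11 did not pass the test, with a median log2 fold change of 0.02. The shares, 26.1% in each direction, were near those of all tested genes (26.0% rose and 27.0% fell). The histone-binding subunit Rbbp7 rose from 683 ± 21.7 to 1608 ± 129 CPM (log2 fold change 1.23 ± 0.05). Of 27 tested p53 targets and cell cycle regulators, 10 rose, 6 fell and 11 did not pass the test, with a median log2 fold change of 0.03, and Btg1, an antiproliferative gene, rose from 71.03 ± 5.11 to 197 ± 12.8 CPM (log2 fold change 1.47 ± 0.073).

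Set beside wild type, which shares no library with the cKO, the fasting response was largely alike in direction. Both genotypes called 5468 genes, of which 2644 rose in both, 2671 fell in both and 153 went in opposite directions. Other genes passed in a single genotype: 700 rose and 856 fell in the cKO only, and 1224 rose and 1366 fell in wild type only. Of the 153, 101 rose in the cKO and fell in wild type, and 52 did the reverse. All passed the interaction test, which opposite calls in the same fit make close to certain. Across the 13237 genes, which are not independent replicates, Pearson's r between the log2 fold changes was 0.752, given as a description. The interaction passed for 2291 genes (17.3%), with 1174 higher and 1117 lower in the cKO. With fasted replicates 3 to 5 alone it passed for 3603. Kpna2 stood at 46.2, 51.9, 51.01, 50.2 and 47.8 CPM in fed replicates 1 to 5, and at 148, 129.8, 108, 98.2 and 112 CPM in fasted replicates 1 to 5. This importin gene, a carrier of proteins into the nucleus, rose in the cKO (1.27 ± 0.10, adjusted p = 1.16e-11) and fell in wild type (107 ± 8.705 CPM fed and 73.8 ± 9.44 CPM fasted; interaction 1.805 ± 0.13, adjusted p = 1.98e-10).

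**Figure D4:**
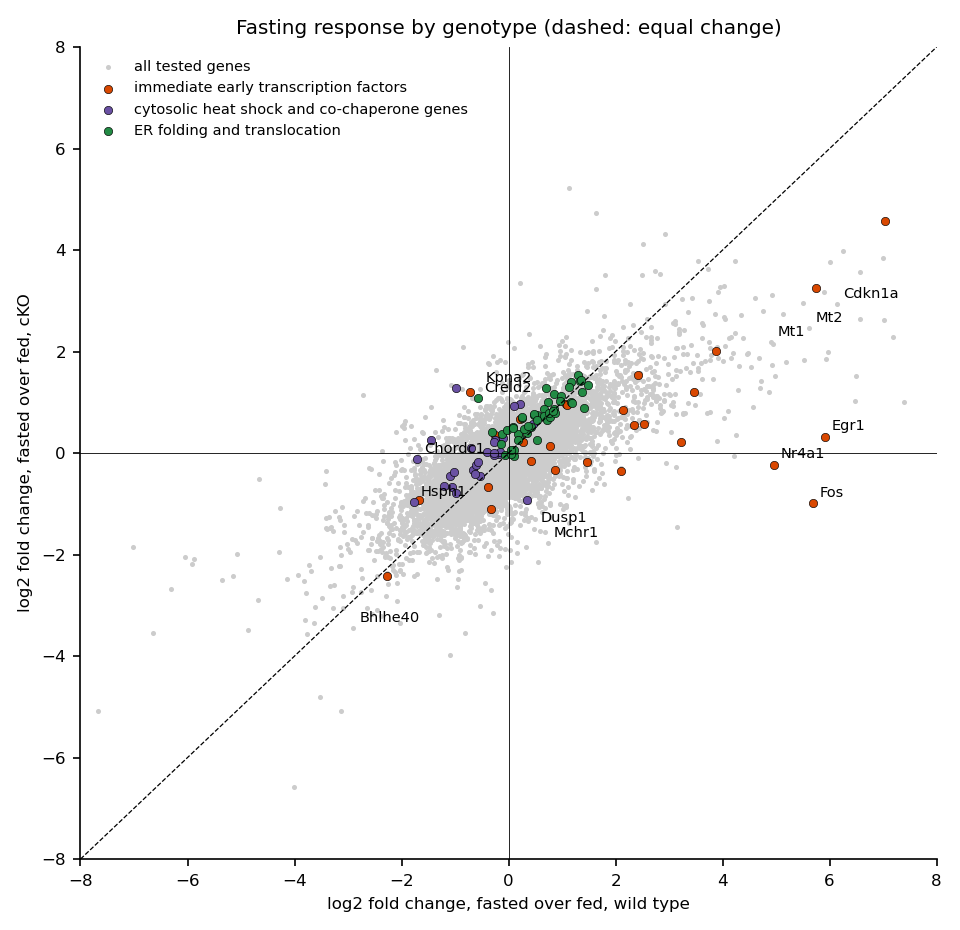
Log2 fold change of fasting in wild type (horizontal) and cKO (vertical) for all tested genes, with 3 lists coloured and a dashed line of equal change. Fos, Egr1 and Nr4a1 lie far to the right near or below 0 in the cKO, and the 18 heat shock genes that passed the interaction test lie above the line.

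Markers of AgRP neurons and of other cells were summed per library. The 10 AgRP markers, all tested, summed to 27769.5 to 32468.8 CPM in fed and 51739.5 to 69949.3 CPM in fasted libraries, led by Npy and Agrp, and 5 rose and 3 fell. Oligodendrocyte markers, 4 of 9 tested, summed to 82.6 to 107 CPM in fed and 49.5 to 65.5 CPM in fasted libraries, and did not overlap. In these bulk samples, fewer cells of a type and less RNA per cell cannot be told apart. Cnp, an enzyme of myelin, fell from 30.3 ± 1.77 to 15.4 ± 2.59 CPM (log2 fold change -0.98 ± 0.15). The part of these cells in the falls of other genes was not tested. Astrocyte markers, 6 of 10 tested, summed to 235 to 262 CPM in fed and 187 to 239 CPM in fasted libraries, and 1 rose, 1 fell and 4 did not pass. Agt, an astrocyte marker that encodes angiotensinogen, rose from 35.2 ± 11.3 to 53.7 ± 21.6 CPM (log2 fold change 0.61 ± 0.21), a call lost without fed replicate 1, without fasted replicate 1 and with fasted replicates 3 to 5 alone (0.24, adjusted p = 0.292, against 1.03, adjusted p = 1.52e-05 with 1 and 2). Aldoc was the astrocyte marker that fell. Tanycyte and ependymal markers, 5 of 9 tested, summed to 40 to 50.1 CPM in fed and 37.1 to 55.2 CPM in fasted libraries. Of the 9 microglial markers 0 were tested, 7 had at most 3 counts in every cKO library, and their sum stayed at or under 1.61 CPM. Endothelial markers, 2 of 8 tested, summed to 2.13 to 6.66 CPM in fed and 2 to 19.4 CPM in fasted libraries, the highest in fasted replicate 3. Mural cell and fibroblast markers, 2 of 8 tested, summed to 4.26 to 9.25 CPM in fed and 2.55 to 5.13 CPM in fasted libraries, erythrocyte markers, 1 of 5 tested, to 2.98 to 5.13 CPM in fed and 1.55 to 4.5 CPM in fasted libraries, and oligodendrocyte precursor markers, 0 of 5 tested, to 0.17 to 1.59 CPM in fed and 0.681 to 1.13 CPM in fasted libraries.

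Markers of neighbouring neurons were higher in some fasted libraries. Pomc stood at 44.1, 66.1, 48.7, 45 and 39.8 CPM in fed replicates 1 to 5, and at 35.5, 41.1, 194, 441 and 337 CPM in fasted replicates 1 to 5. Pomc, made by arcuate neurons that suppress feeding, was high in fasted replicates 3 to 5, while replicates 1 and 2 lay within or below the fed range. Over all libraries it rose (2.11 ± 0.44, adjusted p = 0.000217), but the direction turned with replicates 1 and 2 alone (-0.35, adjusted p = 0.175) and the rise was larger with 3 to 5 alone (2.73, adjusted p = 1.35e-14). The summed markers of Pomc neurons were 56.2 to 79.1 CPM in fed and 52 to 467 CPM in fasted libraries. Cartpt, which Pomc neurons also express, was higher in fasted replicates 3 to 5 too. Cartpt stood at 311, 247, 266, 318 and 377 CPM in fed replicates 1 to 5, and at 404, 490.2, 629, 655 and 596 CPM in fasted replicates 1 to 5. Markers of other peptide neurons, with Sst among them, summed to 127 to 354 CPM in fed and 469 to 1026.1 CPM in fasted libraries. Those of dopamine neurons, 5 tested, summed to 26.7 to 39.8 CPM in fed and 35 to 50.8 CPM in fasted libraries, and 2 rose (Th and Slc18a2), 1 fell (Ddc) and 2 did not pass. Th, the enzyme that makes dopamine's precursor, rose from 4.79 ± 2.52 to 15.3 ± 2.94 CPM (log2 fold change 1.699 ± 0.24). Markers of KNDy neurons, arcuate cells that make kisspeptin, were at 0 in all fed libraries and in fasted replicates 1 and 2, and summed to 21.1 CPM in fasted replicate 4. Glutamatergic markers summed to 0.767 to 3.75 CPM in fed and 0.25 to 3.34 CPM in fasted libraries.

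**Figure D5:**
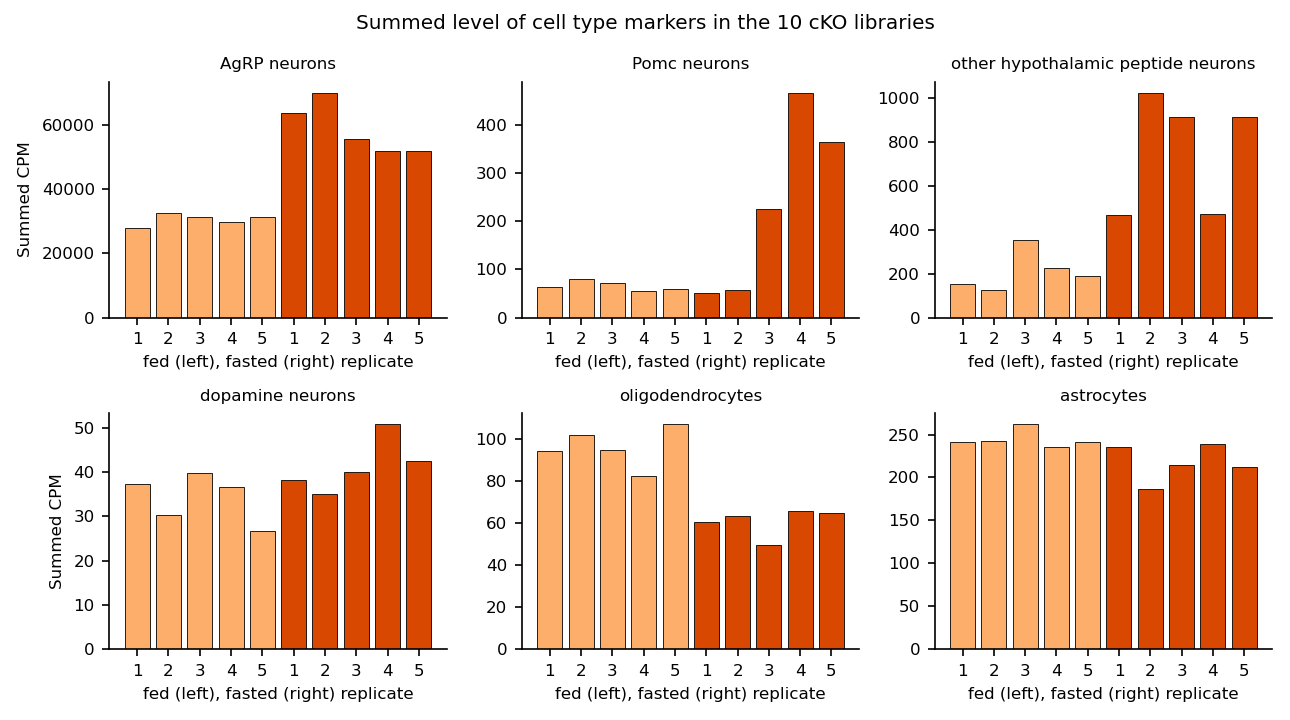
Summed CPM of the markers of 6 cell types in the 5 fed (left) and 5 fasted (right) cKO libraries. AgRP markers reach 51739.5 CPM or more in every fasted library, and Pomc neuron markers are high in fasted replicates 3 to 5 alone.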

How the data were processed

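RNA-seq counts per gene were deposited by the authors for 20 libraries of 1000 sorted neurons each. Per the labels' protocols, cDNA was made with SMART-seq v4 in 15 cycles and libraries with Nextera XT, which do not mark strand. The submitters' processing notes name Trimmomatic 0.36, HISAT2 2.1.0, featureCounts of Subread 1.6.2, DESeq2 1.20.0 and GRCm38 (mm10); for the annotation, the strand setting and reads that match several places, the choice is not given in the sources used here. All columns of the deposited count table were matched to a sample by name, and a deposited table of normalized counts was not used.

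Counts were analysed as deposited with edgeR 4.0.16 in R 4.3.3: filterByExpr at its defaults, TMM factors, and a quasi-likelihood fit of 4 group means over all 20 libraries, which share 1 estimate of spread. P-values were adjusted by Benjamini-Hochberg over 13237 tested genes, at a threshold of 0.05. The SE is the log2 fold change divided by the square root of F. DESeq2 1.42.0, other scalings and filters, a replicate block, left-out libraries, both sets of fasted libraries and offsets for GC content and length (mgcv 1.9.3) were alternatives. The test was checked on simulated data. No pair of replicates was a repeat of 1 library (chi-square per degree of freedom 3.64 to 12.8).

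Genes open to naming were the members of the 44 gene lists (1165 entries), the 15 largest rises and falls with non-overlapping groups and a mean of at least 2 log2 CPM, and the 15 smallest interaction p-values. The gene lists, the sets of fasted libraries and the comparison itself were chosen with earlier results of these data known. Coordinates and exon overlaps come from GENCODE release M21 (GRCm38), and promoters from RefSeq (GRCm38.p6). Some genes that the naming rule allows are not reported here.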

Additional observations from a re-analysis of the deposited data

Results flagged for a closer look

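In 17 of the 258 groups of 5 cKO libraries examined (129 named genes, fed and fasted), 1 library lay far from the other 4, by a gap of over 0.71 of the group's range. Chance alone gives this in about 1 in 20 groups. Fed replicate 1 stood apart for Agrp at 4369.2 CPM, Gal at 18.8 CPM, Rpl3 at 1126.8 CPM, Rph3a at 23.1 CPM and Lmo3 at 28.2 CPM. Fed replicate 2 stood apart for Scg2 at 4176.3 CPM, Egr1 at 48.6 CPM and Camk2a at 31.1 CPM. Fed replicate 3 stood apart for Acvr1c at 183.0 CPM. Fed replicate 4 stood apart for Atf4 at 88.1 CPM. Fed replicate 5 stood apart for Jun at 60.4 CPM, Fosl2 at 5.62 CPM, Crem at 136.0 CPM and Kcnk1 at 49.1 CPM. Fasted replicate 2 stood apart for Fosb at 17.5 CPM and Sec61b at 649.0 CPM. Fasted replicate 4 stood apart for Junb at 51.2 CPM.

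For 62 of the 129 named genes (48.1%, against 17.3% of all tested genes) the fasting response differed between the genotypes by the interaction test (edgeR's quasi-likelihood test, adjusted p under 0.05). The naming rule admitted the 15 genes with the smallest interaction p-values, so the named genes were in part chosen for this difference. Of the 62 genes, 9 were among those 15. The gene lists were also chosen with earlier results of these data known. The values are the log2 fold change of the cKO minus that of wild type. They do not show whether the fed or the fasted levels differed. The change was lower by over 1.5 log2 units in the cKO for Hcrtr2 (-1.92), Mchr1 (-2.51), Fos (-6.68), Egr1 (-5.59), Nr4a1 (-5.2), Fosl2 (-1.85), Fosb (-2.49) and Cdkn1a (-3.2). The same held for Dusp1 (-1.97), Sgk1 (-2.06), Mt1 (-2.73), Mt2 (-3.15), Per1 (-1.51), Per2 (-2.15), Ciart (-1.62) and Ccdc141 (-3.0). The same held for Ccl17 (-1.84) and Agt (-2.18). Smaller negative differences were found for Agrp (-0.55), Npy (-0.75), Vgf (-0.6), Scg2 (-0.34), Pcsk1 (-0.43), Chga (-0.42), Lepr (-0.91) and Ghsr (-0.53). They were also found for Pik3ip1 (-1.41), Irs2 (-0.6), Junb (-1.19), Nfil3 (-0.88), Spry4 (-1.39), Gadd45a (-0.89), Dbp (-0.66) and Nr1d1 (-0.85). They were also found for Atf4 (-0.3), Rpl3 (-0.23), Ucp2 (-0.41), Kcnab1 (-1.35), Bsx (-1.01), Btg1 (-0.86) and Fam107b (-1.13). The change was higher in the cKO for Phf6 (0.9), Sst (1.35), Cartpt (0.79), Npy2r (0.55), Mc3r (0.55), Jun (0.76), Atf3 (1.91) and Creld2 (1.64). It was also higher for Hsph1 (0.8), Stip1 (0.56), Dnaja1 (0.49), Hspb1 (0.83), Cacybp (0.4), Chordc1 (1.58), Hmgcs1 (1.02) and Sqle (0.86). It was also higher for Tnfrsf12a (1.32), Cks1b (0.65), Tnfaip8l3 (1.31), Kpna2 (1.8) and Th (1.33). No explanation of these differences was tested.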

How the results depend on the processing

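The number of genes that rose ranged from 3205 to 3629 over the alternatives (3244 to 3416 when 1 library was left out) and the number that fell from 3274 to 3909 (3274 to 3544). The interaction ranged from 1941 to 2700 genes when 1 library was left out, and reached 3603 with fasted replicates 3 to 5 only. Upper-quartile scaling moved the split to 3208 rising and 3909 falling genes. Of the 120 named genes past the threshold, 111 kept their call under each of 20 alternatives, 8 lost it under at least 1, and Pomc turned. Those 8 were Phf6, Chga, Junb, Dnaja1, Cacybp, Ucp2, Slc32a1 and Agt. Of the 9 not past it, 6 passed under at least 1 (Egr1, Gad1, Per1, Per2, Rpl3 and Chordc1). With GC and length offsets the list medians that moved by more than the replicate spread were peptides and granule proteins 0.34, receptors 0.0238, insulin signalling -0.16, immediate early genes 0.53, circadian clock -0.18, heat shock genes -0.21 and cytosolic ribosomal proteins 0.56. Further medians were translation factors 0.25, oxidative phosphorylation 0.21, proteasome 0.40, fatty acid oxidation -0.13, autophagy and lysosome -0.0400, potassium channels -0.12 and sodium and calcium channels -0.28. Further medians were glutamate receptors -0.18 and p53 and cell cycle genes 0.15. With fasted replicates 1 and 2 only they were leptin signalling -0.51, insulin signalling -0.16, immediate early genes 0.50, activity-induced effectors 0.87, translation factors 0.38, proteasome 0.52 and cholesterol synthesis -0.997. Further medians were glycolysis and the citric acid cycle -0.15, autophagy and lysosome -0.0365, potassium channels -0.0328, GABA genes -0.39, synaptic vesicle release -0.28 and NuRD and PAF1 complexes 0.10. With fasted replicates 3 to 5 only they were leptin signalling -0.29, ER genes 0.69, heat shock genes -0.20, fatty acid oxidation -0.17 and identity transcription factors -0.17. With upper-quartile scaling they were ER genes 0.69, translation factors 0.28, autophagy and lysosome -0.0160 and sodium and calcium channels -0.38. With 1 library left out in turn, medians ranged over -0.47 to -0.30 for leptin signalling, 0.43 to 0.74 for activity-induced effectors, 0.0636 to 0.15 for receptors, -0.37 to -0.27 for sodium and calcium channels and -0.00196 to 0.13 for fatty acid synthesis. They ranged over -0.24 to -0.16 for synaptic vesicle release, -0.33 to -0.17 for GABA genes, -0.43 to -0.27 for circadian clock and 0.0131 to 0.11 for p53 and cell cycle genes. The sign of some log2 fold changes turned: Hspa8 to 0.0027 (DESeq2 size factors), Chordc1 to 0.0561 (fasted replicates 1 and 2 only), Otp to 0.0375 (fasted replicates 1 and 2 only), Pomc to -0.35 (fasted replicates 1 and 2 only), Otp to 0.18 (GC and length offsets) and Hspa8 to 0.0027 (DESeq2 Wald test). With 1 library left out, Otp ranged over -0.11 to 0.0110 and Hspa8 ranged over -0.0263 to 0.0113. The cause of these shifts was not tested. A fit with the replicate number as a block called 3444 rising and 3625 falling genes and an interaction in 2347. The labels tie no number to an animal, litter or day, and the correlations of same-numbered deviations (0.0205, 0.0187, 0.0307, 0.000643 and -0.036) do not pair the samples; 3 of 5 fed libraries correlated best with their own number. GC content and length were known for 12692 of 13237 genes (95.9%).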
